A study of Mus musculus with 10 samples.

Results

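A set of 10 genes used as markers of tissue around the hippocampus was followed through RNA libraries of the micro-dissected dentate gyrus. They are 3 genes of thalamic neurons (Tcf7l2, Prkcd and Slc17a6, listed in capitals in the deposited table as TCF7L2, PRKCD and SLC17A6), 2 of the choroid plexus (Ttr and Kl, listed as TTR and KL), 3 of the meninges (Col1a1, Lum and Ptgds, listed as COL1A1, LUM and PTGDS) and 2 hormone genes of the anterior pituitary (Gh and Prl, listed as GH and PRL). The members were chosen by symbol, with earlier results of these data known, and all 10 were among the 24982 genes of the count table. The libraries came from 5 male mice with a global knockout of Fndc5 (KO) and 5 male wild types (WT), aged 10 weeks. Both genotypes were on a C57BL/6 background, and each mouse gave 1 library. Fndc5 encodes the membrane protein that is cleaved to irisin, a hormone released by muscle. The labels do not name the knockout allele or say whether the mice were littermates.

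The dentate gyrus is the hippocampal subfield of granule neurons. It lies over the thalamus and beside the ventricle that holds choroid plexus, and meningeal sheets follow the hippocampal fissure into it, while the pituitary lies apart, under the base of the brain. Thalamic relay neurons carry Slc17a6, the vesicular glutamate transporter VGLUT2. Choroid plexus epithelium makes cerebrospinal fluid and secretes transthyretin, the product of Ttr. Meningeal fibroblasts lay down collagen and small proteoglycans. In the anterior pituitary, somatotrophs make growth hormone (Gh) and lactotrophs make prolactin (Prl), and both cell types depend on the transcription factor Pou1f1, also called Pit-1. None of these genes is strictly specific. Kl (klotho) is also made by hippocampal neurons, Ptgds by oligodendrocytes, Tcf7l2 by maturing oligodendrocytes, Prkcd by immune cells, and Slc17a6 by Cajal-Retzius neurons at the hippocampal fissure.

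Library totals ran from 26226375 to 43802079 counts. Levels are given as raw counts or as CPM, counts scaled to a common library size after scaling between libraries by trimmed mean of M values (TMM), and levels of different genes are compared only as CPM per kilobase of annotated exon. The targeted gene Fndc5 was at 51.3 ± 4.27 CPM in KO and 75.3 ± 4.60 CPM in WT (SD, n = 5 each). All KO libraries, at 45.4 to 56.7 CPM, lay below all WT libraries, at 69.2 to 80.3 CPM. The log2 fold change of Fndc5 was -0.55 (SE 0.057, edgeR adjusted p 0.000495). It was the 1 gene of 14867 tested that passed an adjusted p of 0.05 in edgeR, which is 0.00673% of them. The tissue label was met by its markers: the granule neuron genes Prox1 and C1ql2 averaged 43.7 and 121.8 CPM per kilobase over the 10 libraries. The summed level of 8 granule neuron genes ran from 1671 to 1819 CPM in KO and from 1518 to 1788 CPM in WT. The 4 haemoglobin genes Hba-a1, Hba-a2, Hbb-bs and Hbb-bt were listed at 0 in every library, while the blood gene Alas2 had 29 to 77 counts. The handling of multi-mapped reads is not given and the source of these zeros was not tested. They are therefore not read as an absence of blood.

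All 10 members had enough counts to be tested, and none passed over all genes with an edgeR adjusted p under 0.05, against the 0.00673% of all tested genes. One, Lum, had an unadjusted p under 0.05, against 6.29% of all genes tested. Lum was higher in KO, as 2.54% of all genes were at that p, and 0 members were lower, against 3.75% of all genes. No member separated the genotypes without overlap, against 0.895% of all genes. Of the members 5 had a log2 fold change above 0, against 50.7% of all genes, and 5 had one below 0. The median log2 fold change was 0.03, beside 0.0016 for all genes tested. Their spread between mice ranged from just under the median of all genes to the widest of all. In bulk tissue, fewer cells of a type and less RNA per cell cannot be told apart.

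**Figure D1:**
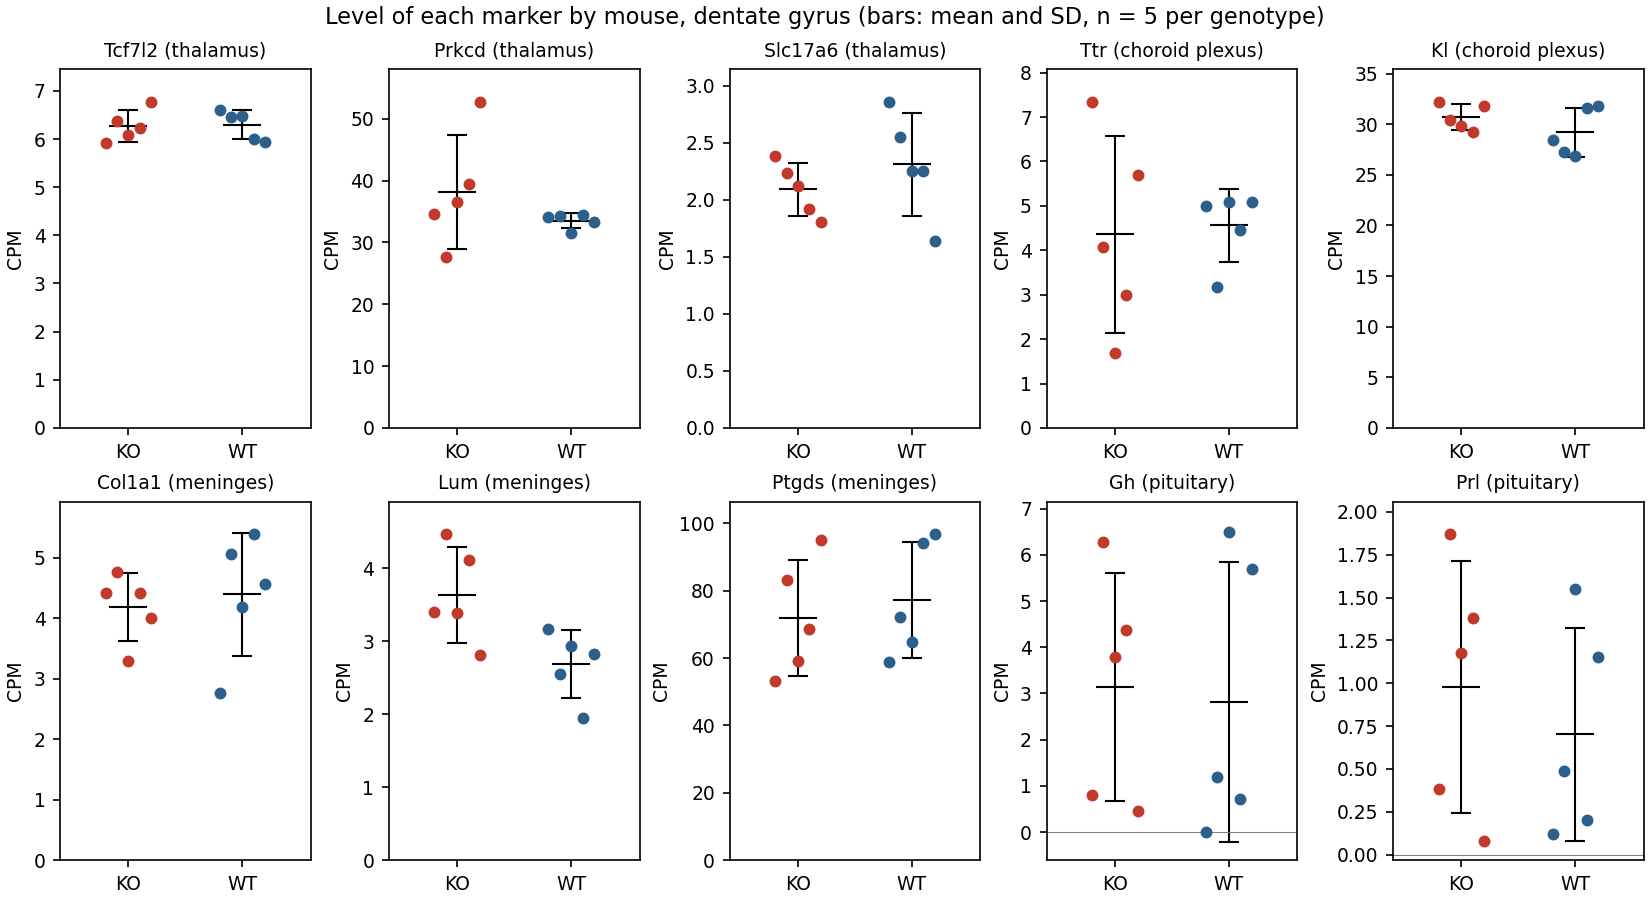
Level of each marker in CPM (y axis, linear, from 0) for the 5 KO and 5 WT mice (points), with mean and SD (bars, n = 5 per genotype). The genotypes overlap for every marker, and Gh ranges from 0.462 to 6.28 CPM in KO and from 0 to 6.51 CPM in WT.

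The pituitary hormones varied most. Gh had 25, 191, 132, 130 and 12 counts in KO mice 1 to 5, and 0, 34, 286, 21 and 153 counts in WT mice 1 to 5. Prl had 12, 57, 41, 41 and 2 counts in KO mice 1 to 5, and 4, 14, 68, 6 and 31 counts in WT mice 1 to 5. The same 5 libraries were highest for both genes: KO mice 2, 3 and 4 and WT mice 3 and 5. In these, Gh lay between 130 and 286 counts and Prl between 31 and 68. In the other 5 libraries Gh lay between 0 and 34 counts and Prl between 2 and 14. The split ran across genotypes, and the totals of the high libraries, 26963625 to 43802079 counts, overlapped those of the low ones, 26226375 to 33459011 counts. Because the libraries fell into these separate sets of 5, no pooled correlation of Gh with Prl is given.

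**Figure D2:**
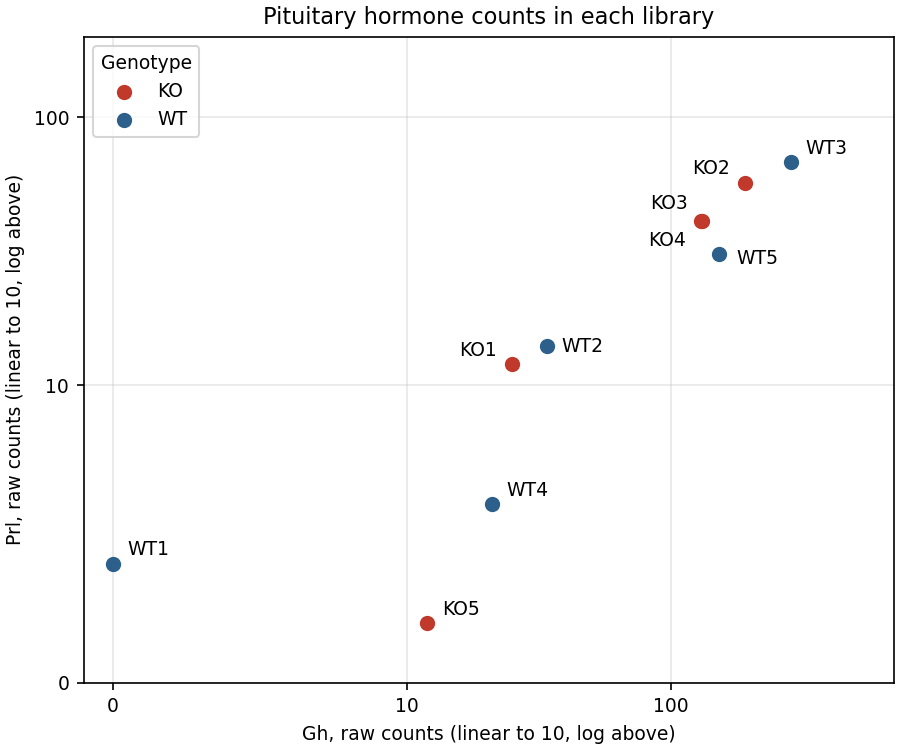
Raw counts of Gh (x axis) against Prl (y axis) in each library, both axes linear to 10 counts and logarithmic above. Points are mice, red for KO and blue for WT; KO3 and KO4, at 132 and 130 Gh counts, lie on top of each other. Libraries of both genotypes stand at the top right and at the bottom left.

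WT mouse 1 had no Gh count among 33459011. A count of 0 allows up to 3 counts, or 0.0912 CPM in that library, whereas WT mouse 3 had 6.51 CPM. Gh was thus at least 71.3-fold higher in WT mouse 3 than in WT mouse 1, with the limit of 3 counts taken for that 1 library. These limits and the intervals below cover counting error only. The share of Gh in the summed counts of both hormones was close among the 5 high libraries and spread more among the others. Gh made up 77.0% of the Gh and Prl counts in KO mouse 2 (95% Wilson interval 71.4% to 81.8%), 76.3% in KO mouse 3 (69.4% to 82.0%) and 76.0% in KO mouse 4 (69.1% to 81.8%). It made up 80.8% in WT mouse 3 (76.4% to 84.6%) and 83.2% in WT mouse 5 (77.1% to 87.9%). The intervals of these 5 libraries overlap. The libraries with fewer counts gave wider intervals, with 67.6% in KO mouse 1 (51.5% to 80.4%) and 85.7% in KO mouse 5 (60.1% to 96.0%). The share was 70.8% in WT mouse 2 (56.8% to 81.8%) and 77.8% in WT mouse 4 (59.2% to 89.4%). WT mouse 1 stood apart, with 0 of 4 counts from Gh (0% to 49.0%).

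Between genotypes Gh averaged 3.14 ± 2.47 CPM in KO and 2.82 ± 3.04 CPM in WT (SD, n = 5 each), a log2 fold change of 0.13 (SE 0.68, edgeR adjusted p 0.982). The value lay between -0.27 and -0.01 when KO mouse 2 or 4 or WT mouse 1, 2 or 4 was left out, and was 0.80 without WT mouse 3. It was 1.27 in limma-voom (adjusted p 0.861). Prl averaged 0.977 ± 0.736 CPM in KO and 0.702 ± 0.622 CPM in WT, a log2 fold change of 0.43 (SE 0.58, 95% interval -0.79 to 1.65, edgeR adjusted p 0.911). Without WT mouse 3 the Prl value was 1.07, and without KO mouse 2 it was 0.08. The 95% interval of Gh ran from -1.32 to 1.58, so differences within that range, in either direction, were not excluded here.

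Of the other pituitary genes, Pomc averaged 0.677 CPM per kilobase, beside 0.596 for Prl, and the rest were sparse. Pomc, the precursor of corticotropin, which hypothalamic neurons also make, had 23, 35, 40, 36 and 8 counts in KO mice 1 to 5, and 11, 14, 35, 61 and 19 counts in WT mice 1 to 5. Its highest library was WT mouse 4, at 61 counts, where Gh had 21. Below it stood KO mice 3, 4 and 2 and WT mouse 3, at 40, 36, 35 and 35 counts, all high for Gh. WT mouse 5, also high for Gh, had 19 Pomc counts, below KO mouse 1 with 23. The order of Pomc over the mice was thus partly that of Gh. The log2 fold change of Pomc was 0.09 (SE 0.40, edgeR adjusted p 0.982). Cga, the common subunit of the glycoprotein hormones, had 0 to 5 counts in KO and 0 to 11 in WT, with its maximum in WT mouse 3, the library with most Gh. The transcription factor gene Pou1f1 had 0 to 4 counts in KO and 0 to 7 in WT, also with its maximum in WT mouse 3. These are raw counts, and WT mouse 3 was also the deepest library, at 43802079 counts. Tshb and Ghrhr had at most 1 count in any library, Fshb at most 2 and Lhb at most 6. The summed level of the 9 pituitary genes ran from 0.962 to 9.56 CPM in KO and from 0.487 to 9.30 CPM in WT. The source of the pituitary counts was not tested.

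The Prl promoter is shown as background, because Pit-1 is known to act on both Prl and Gh. Whether Pit-1 bears on the libraries in which both genes were high was not tested. The table of RefSeq promoters used here (GRCm38.p6) held 6 of the 10 members, Prl among them; those of Gh, Ttr, Col1a1 and Lum were not analysed here. The 200 bases before the Prl start site, on the plus strand at chr13:27057370-27057569, are given 5′ to 3′ with capitals at each match to ATGNATA, a short form of the Pit-1 motif, on either strand.
Prl promoter: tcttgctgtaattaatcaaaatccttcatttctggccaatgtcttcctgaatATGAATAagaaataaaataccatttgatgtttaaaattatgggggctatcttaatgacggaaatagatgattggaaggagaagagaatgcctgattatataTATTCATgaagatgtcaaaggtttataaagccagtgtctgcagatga
The motif matched 2 times, 148 to 142 bases before the start site on the plus strand and 47 to 41 bases before it on the minus strand. Of 32851 RefSeq promoter windows of 300 bases, 8.84% held the motif on either strand. Of the other members with a promoter in the table, Slc17a6 had a match in 1 of its 2 windows and Kl, Prkcd, Ptgds and Tcf7l2 had 0. A match is a description of these letters and not evidence of a bound site.

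The spread between mice of a genotype was measured as edgeR's biological coefficient of variation, the relative SD between mice beyond counting error, which the tool moderates towards genes of like level. Its median over the 14867 tested genes was 6.51%. Gh had 90.1%, the widest of all tested genes, and Prl had 65.9%, rank 3 behind Gh and Lcn2, which had 81.8%. For Gh this compares with a relative counting error of 10.1% at its mean count, and for Prl with 19.0%. Ttr had 28.7%, wider than 99.7% of tested genes. Ptgds at 16.6%, Col1a1 at 14.9%, Lum at 12.8%, Prkcd at 12.4% and Slc17a6 at 11.3% were wider than 82.4% to 94.9% of them. Tcf7l2 at 5.91% and Kl at 5.88% were below the median. The spread of a gene also goes with its level, as the plot of spread against level shows. Lcn2 was named after its value was seen. The members were chosen with earlier results of these data known, so their ranks are a description.

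**Figure D3:**
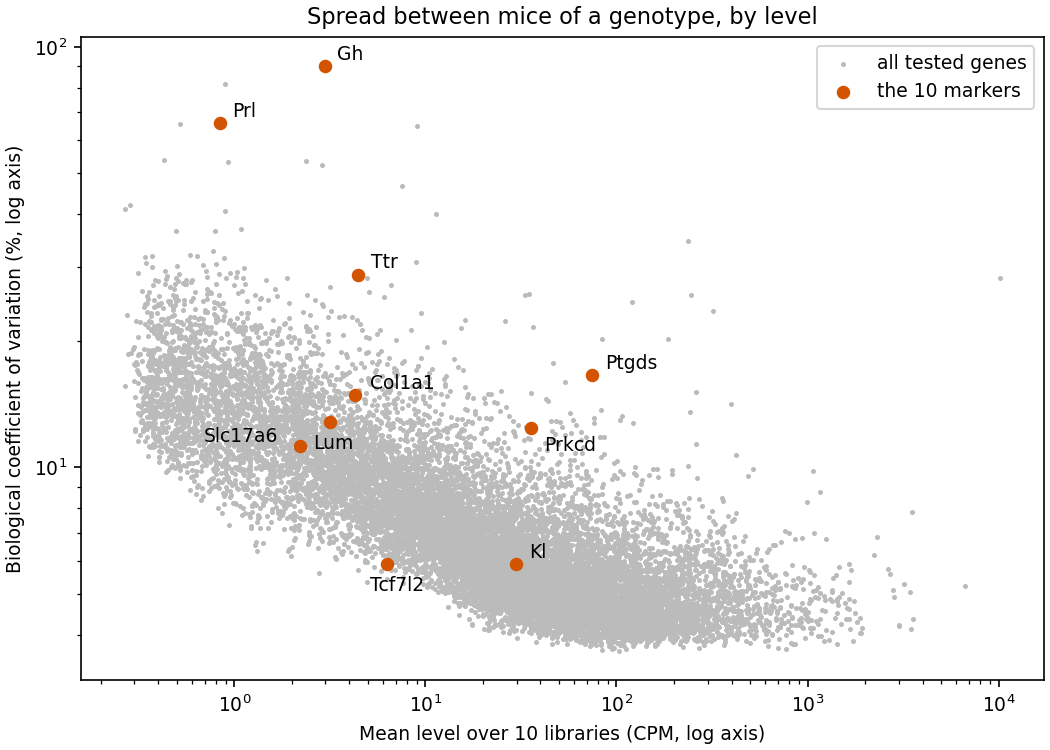
Biological coefficient of variation in percent (y axis, log) against the mean level over 10 libraries in CPM (x axis, log) for all 14867 tested genes (grey) and the 10 markers (orange). Gh (90.1%) and Prl (65.9%) rank 1 and 3 of all tested genes, with Lcn2 (81.8%, grey) between them and other grey points close below Prl. Ttr (28.7%) and Ptgds (16.6%) lie at the upper edge, and Tcf7l2 and Kl lie within the cloud.

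Of the choroid plexus markers, Ttr was uneven between mice and Kl was even. Ttr, which codes for the thyroid hormone carrier of cerebrospinal fluid, had 231, 124, 59, 89 and 148 counts in KO mice 1 to 5, and 164, 91, 224, 132 and 137 counts in WT mice 1 to 5. It was highest in KO mouse 1 at 7.34 CPM and lowest in KO mouse 3 at 1.69 CPM, a 4.34-fold range within 1 genotype. The WT mice, at 3.18 to 5.10 CPM, lay inside that range. Genotypes differed by -0.08 in log2 fold change (SE 0.27; interval, at 95%, -0.65 to 0.48; edgeR adjusted p 0.968). It was 0.14 without KO mouse 3 and -0.37 without KO mouse 1.

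Kl, which codes for klotho, a co-receptor of fibroblast growth factor 23, had 1013, 927, 1042, 869 and 825 counts in KO mice 1 to 5, and 934, 779, 1179, 938 and 857 counts in WT mice 1 to 5. It was even between mice, at 29.3 to 32.2 CPM in KO and 26.8 to 31.8 CPM in WT, with overlapping groups. For Kl the fitted log2 fold change came to 0.08 (SE 0.057, edgeR adjusted p 0.835), with -0.04 to 0.20 as its 95% interval. Per kilobase, Ttr was at 3.68 ± 1.87 in KO and 3.84 ± 0.689 in WT, and Kl at 3.29 ± 0.133 in KO and 3.13 ± 0.257 in WT (CPM per kilobase, SD, n = 5 each). The ratio of Ttr to Kl per kilobase ran from 0.445 in KO mouse 3 to 1.79 in KO mouse 1, and from 0.919 to 1.49 in WT. Across the 10 libraries their log2 levels gave r = 0.32 (permutation p 0.373, adjusted p 0.501 over 7 pairs) and rho = 0.44 (p 0.203, adjusted p 0.473), with r = 0.53 (exact permutation p 0.189) without KO mice 3 and 4.

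The other choroid plexus genes ranged widely in level, and 9 of the 15 had too few counts to be tested. The folate receptor gene Folr1 had 0 to 4 counts in KO and 0 to 3 in WT, the potassium channel gene Kcnj13 had 1 to 4 and 0 to 8, and Tmem72 had 0 to 2 and 0 to 3. Of the 17 listed choroid plexus genes, 8 had enough counts to be tested and 0 passed over all genes, with 2 higher and 6 lower in KO and a median log2 fold change of -0.08. Enpp2 (autotaxin), which myelinating cells also make, was at 60.7 ± 6.5 CPM in KO and 65.0 ± 3.44 CPM in WT (log2 fold change -0.10, edgeR adjusted p 0.806). The prolactin receptor gene Prlr was at 1.78 ± 0.468 CPM in KO and 2.17 ± 0.281 CPM in WT (-0.29, SE 0.17, edgeR adjusted p 0.800). Sostdc1, which codes for a secreted inhibitor of bone morphogenetic proteins, had 36 to 68 counts in KO and 30 to 74 in WT. The water channel gene Aqp1 had a log2 fold change of 0.14 (edgeR adjusted p 0.938) and the tight junction gene Cldn2 of -0.15 (edgeR adjusted p 0.940). The summed level of the 17 genes was 88.2 to 112.1 CPM in KO and 99.0 to 113.0 CPM in WT. Most of this sum was Enpp2 and Kl, which other cells also make. Kl averaged 30.7 CPM in KO and 29.2 CPM in WT. Of 6 genes of ependymal cells, which line the ventricle, 3 were tested and 0 passed (median -0.17). Of those not tested, Tmem212 was at 0 in every library and Ccdc153 had at most 1 count in KO and 3 in WT. Of those tested, Foxj1 had 89 to 122 counts in KO and 99 to 191 in WT. In log2 fold change the cilia regulator Foxj1 was at -0.17, 1110017D15Rik at -0.26 and Rarres2 at 0.32 (unadjusted p 0.0487).

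The meningeal markers gave the smallest p among the members. Lum (lumican), a proteoglycan that binds collagen fibrils, had 107, 136, 118, 122 and 73 counts in KO mice 1 to 5, and 104, 73, 129, 58 and 76 counts in WT mice 1 to 5. It was at 3.63 ± 0.656 CPM in KO and 2.69 ± 0.464 CPM in WT (SD, n = 5 each), and 4 of 5 KO mice lay above every WT mouse. KO mouse 5, at 2.81 CPM, lay among the WT mice, whose range was 1.95 to 3.16 CPM. Fitted, Lum differed by 0.43 on the log2 scale (SE 0.15, unadjusted p 0.00885), with 0.12 to 0.74 as the 95% interval, and it did not pass over all genes (edgeR adjusted p 0.788). Its value stayed between 0.34 and 0.51 in all 16 alternatives, and its lowest adjusted p there was 0.347.

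Col1a1, the main chain of fibrillar collagen I, had 139, 145, 115, 131 and 104 counts in KO mice 1 to 5, and 91, 145, 184, 160 and 123 counts in WT mice 1 to 5. The lowest library was WT mouse 1, at 2.77 CPM, and the groups overlapped. Its log2 fold change was -0.07 (SE 0.15, 95% interval -0.39 to 0.26, edgeR adjusted p 0.951). Across the 10 libraries Lum and Col1a1 gave r = -0.28 (permutation p 0.429, adjusted p 0.501 over 7 pairs) and rho = -0.30 (p 0.411, adjusted p 0.689), and with r = -0.42 (exact permutation p 0.308) without KO mouse 3 and WT mouse 1.

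The third meningeal marker, Ptgds, codes for the prostaglandin D synthase that is secreted into cerebrospinal fluid. It had 1677, 2533, 2063, 2034 and 2471 counts in KO mice 1 to 5, and 1930, 2070, 2850, 2795 and 2606 counts in WT mice 1 to 5. KO mouse 5 and WT mice 4 and 5 were highest, at 95.1, 94.2 and 96.8 CPM, and KO mouse 1 was lowest at 53.3 CPM. For Ptgds the log2 fold change came to -0.11 (SE 0.15, edgeR adjusted p 0.916), its 95% interval ran over -0.43 to 0.21, and the groups overlapped. The part of oligodendrocytes in the Ptgds counts was not tested. With Col1a1, Ptgds gave r = 0.53 (permutation p 0.116, adjusted p 0.501 over 7 pairs) and rho = 0.48 (p 0.169, adjusted p 0.473). Without KO mouse 3 and WT mouse 1 that r was 0.23 (exact permutation p 0.582). With Lum, Ptgds gave r = -0.39 (p 0.272, adjusted p 0.501) and rho = -0.48 (p 0.168, adjusted p 0.473), and r = -0.49 (exact permutation p 0.226) without KO mouse 2 and WT mouse 4.

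All 19 listed meningeal genes were tested and 0 passed over all genes. Lum alone had an unadjusted p under 0.05, against 6.29% of all genes. In KO, 7 were higher and 12 lower, with a median log2 fold change of -0.03. The proteoglycan genes Fmod and Dcn were at -0.30 (SE 0.18) and -0.23 (SE 0.22), Ogn at 0.04 (SE 0.16), and the fibroblast gene Islr at 0.06 (SE 0.06). The retinoic acid synthesis gene Aldh1a2 was at -0.23 (SE 0.23). The collagen genes Col1a2 and Col3a1 were at -0.07 and -0.11. The summed level of the list was 139.2 to 184.5 CPM in KO and 141.5 to 195.7 CPM in WT. Its largest part was Ptgds, at a mean of 71.85 CPM in KO and 77.36 CPM in WT.

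**Figure D4:**
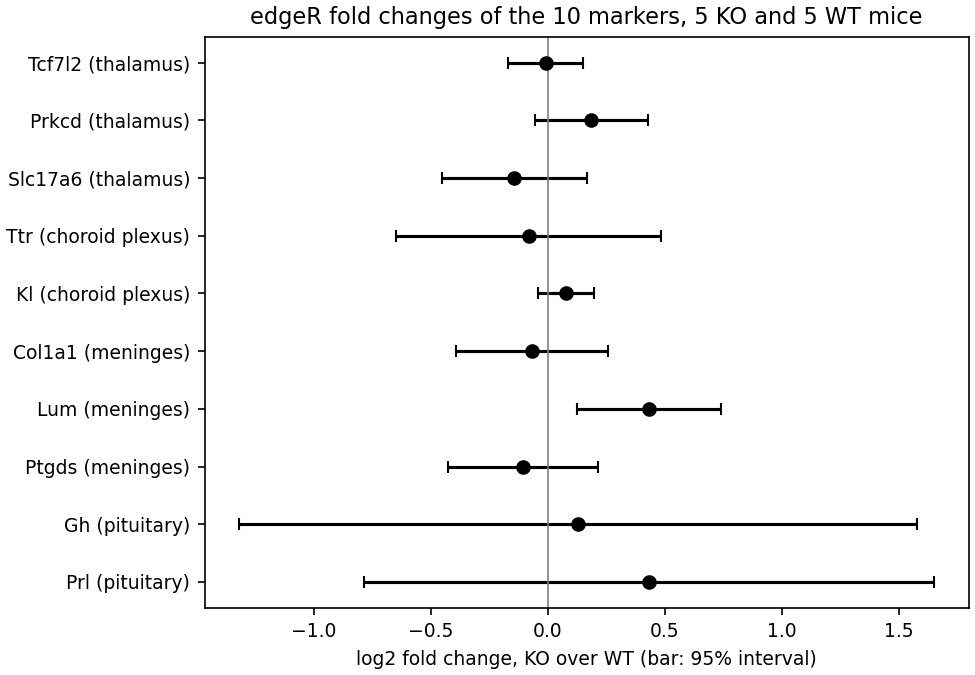
edgeR log2 fold changes of the 10 markers, KO over WT (x axis), with 95% intervals (bars), from 5 KO and 5 WT mice. The interval of Lum (0.12 to 0.74) lies above 0, though Lum did not pass over all genes; the other intervals include 0, and those of Gh and Prl are the widest.

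Among the thalamic markers, Tcf7l2, a transcription factor of Wnt signalling, was even. It had 186, 194, 212, 185 and 176 counts in KO mice 1 to 5, and 217, 185, 285, 178 and 160 counts in WT mice 1 to 5. In CPM these are 5.91 to 6.77 in KO and 5.94 to 6.60 in WT, and its log2 fold change was -0.01 (SE 0.08, 95% interval -0.17 to 0.15, edgeR adjusted p 0.989). The sign of so small a value turned under upper-quartile scaling, to 0.00097.

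Prkcd, which codes for the delta isoform of protein kinase C, had 1090, 841, 1276, 1171 and 1370 counts in KO mice 1 to 5, and 1122, 982, 1383, 1023 and 895 counts in WT mice 1 to 5. Its KO mice spread over 38.2 ± 9.21 CPM, while its WT mice lay close together at 33.5 ± 1.2 CPM (SD, n = 5 each). KO mouse 5 was highest at 52.7 CPM and KO mouse 2 lowest at 27.6 CPM, and 4 KO mice lay above and 1 below the WT range of 31.5 to 34.5 CPM. Prkcd had a log2 fold change of 0.19 (SE 0.11, edgeR adjusted p 0.800), with -0.06 to 0.43 as its 95% interval. It was 0.05 without KO mouse 5 and 0.28 without KO mouse 2. Whether the spread differed between genotypes was not tested.

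Slc17a6 was the lowest of the thalamic markers. It had 75, 68, 74, 57 and 47 counts in KO mice 1 to 5, and 94, 73, 99, 67 and 44 counts in WT mice 1 to 5. It averaged 2.09 ± 0.232 CPM in KO and 2.31 ± 0.453 CPM in WT, and WT mouse 1 was highest and WT mouse 5 lowest, so the groups overlapped. Slc17a6 had a log2 fold change of -0.14 (SE 0.15, edgeR adjusted p 0.884), with -0.45 to 0.17 as its 95% interval. Of genes of Cajal-Retzius cells, which also carry Slc17a6, Reln was at -0.14 (SE 0.10), Trp73 at 0.15 (SE 0.11), Lhx1 at 0.13 (SE 0.24) and Ndnf at 0.03 (SE 0.07), and of the 5 listed genes of these cells 5 were tested and 0 passed (median 0.03). Their summed level was 66.5 to 91.8 CPM in KO and 70.0 to 99.7 CPM in WT, most of it Reln. The part of Cajal-Retzius cells in the Slc17a6 counts was not tested.

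No pair of the 3 thalamic markers passed a test of correlation. Tcf7l2 with Prkcd gave r = 0.34 (permutation p 0.367, adjusted p 0.501 over 7 pairs) and rho = -0.02 (p 0.974, adjusted p 0.974), and r = -0.28 (exact permutation p 0.513) without KO mice 1 and 5, so the sign rested on those mice. Tcf7l2 with Slc17a6 gave r = 0.23 (p 0.524, adjusted p 0.524) and rho = 0.13 (p 0.732, adjusted p 0.855), and without the same mice r = 0.77 (exact permutation p 0.0212, adjusted p 0.148). Prkcd with Slc17a6 gave r = -0.40 (p 0.256, adjusted p 0.501) and rho = -0.25 (p 0.492, adjusted p 0.689), and r = -0.19 (exact permutation p 0.653) without KO mice 2 and 5. None of the 7 pairs of markers tested within a tissue passed after adjustment.

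Of 12 listed thalamic genes 11 were tested and 0 passed over all genes, with 4 higher and 7 lower in KO and a median log2 fold change of -0.01. Ramp3, a receptor activity modifying protein, had the smallest p of the list, at 4.08 ± 0.589 CPM in KO and 3.21 ± 0.480 CPM in WT (log2 fold change 0.34, SE 0.13, unadjusted p 0.0149, edgeR adjusted p 0.788). The signalling regulator Rgs16 was at -0.19 (SE 0.11, edgeR adjusted p 0.800), Tnnt1 at -0.14 (SE 0.25) and Amotl1 at 0.03 (SE 0.06). Gbx2, a transcription factor of developing thalamic neurons, had 0 to 1 counts in KO and 1 to 7 in WT. The habenula lies on the thalamus just below the hippocampus, and its defining genes Pou4f1 and Gpr151 had 0 to 5 and 1 to 2 counts in KO, and 0 to 1 and 1 to 7 counts in WT. Of its 6 listed genes 2 were tested, Tac2 and Nwd2, and 0 passed (-0.14 and -0.09). The summed level of the thalamic list was 167.5 to 191.4 CPM in KO and 162.4 to 182.9 CPM in WT. Its largest part was Ntng1, at a mean of 59.3 CPM in KO and 58.3 CPM in WT, followed by Prkcd.

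Per kilobase of exon, Ptgds was the highest of the members, at 32.3 to 58.7 CPM per kilobase over the 10 libraries, and its range did not meet that of any other member. Prkcd followed with a mean of 6.47, then Ttr at 3.76, Gh at 3.45 and Kl at 3.21, whose ranges overlapped from each to the next. Lum, at 0.798 to 1.83, did not meet its neighbours by mean, Kl above it and Tcf7l2 below it. Its range did overlap those of Ttr (1.43 to 6.19), Gh (0 to 7.55), Prl (0.0547 to 1.33) and Col1a1 (0.422 to 0.821). Tcf7l2 at 0.716, Col1a1 at 0.653, Prl at 0.596 and Slc17a6 at 0.408 formed the low end, with overlapping neighbours. The mean of Ptgds, 45.2 CPM per kilobase, stood beside those of the granule neuron genes Prox1 at 43.7 and Calb1 at 44.2. Together the 10 members took 0.0145% to 0.0199% of the counts of a KO library and 0.0139% to 0.0189% of those of a WT library. The lengths count every annotated exon of a gene, so the levels of genes with long minor transcripts are understated.

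**Figure D5:**
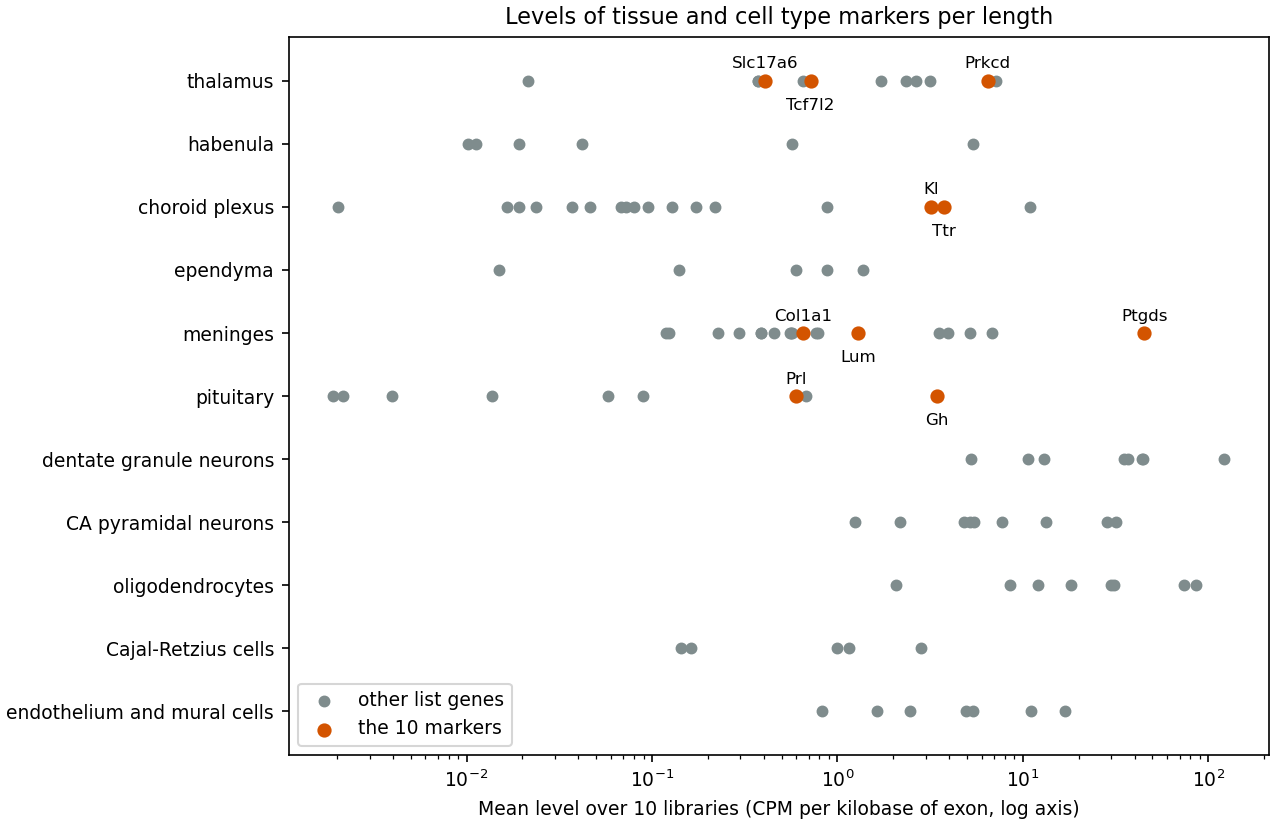
Mean level over 10 libraries in CPM per kilobase of exon (x axis, log) for the genes of 11 marker lists (rows), with the 10 markers in orange and named. Genes at 0 in every library and the blood list are not drawn. Apart from Ptgds at 45.2, the markers lie below 10 CPM per kilobase, most below the granule neuron genes.

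Genes of cell types inside or beside the dentate gyrus gave no call either in edgeR. Of 8 granule neuron genes, 8 were tested and 0 passed (median 0.03): Dsp was at 0.16 (unadjusted p 0.0417), Lct at 0.12 (unadjusted p 0.0399), Trpc6 at -0.17 and C1ql2 at 0.05. Of 9 genes of CA pyramidal neurons, 9 were tested and 0 passed (median -0.01), and Amigo2 was at -0.23 (unadjusted p 0.0438), Man1a at -0.12, Nectin3 at -0.11 and Rgs14 at 0.09. Of 8 oligodendrocyte genes, 8 were tested and 0 passed (median 0.03), with Mog at 0.15, Opalin at 0.21 and Cldn11 at 0.07. Of 7 vascular genes, 7 were tested and 0 passed (median -0.002), with Acta2 of smooth muscle at 0.32 (unadjusted p 0.0209), Rgs5 at -0.07, Flt1 at -0.05 and Cldn5 at -0.13. Of 5 blood genes, Alas2 alone was tested and did not pass (-0.11). Over all 12 lists, 84 of 111 genes were tested, 0 passed over all genes in edgeR and 7 had an unadjusted p under 0.05, against 6.29% of all genes.

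No member outside the pituitary had another marker of its tissue among its 3 most alike genes over the 10 libraries. Likeness was Pearson's r of the log2 level, a description without a test, since each was the best of 14866 genes; predicted genes, Rik and pseudogene names were passed over. The first gene by likeness had r between 0.90 and 0.97 for the 8 members outside the pituitary: Slc15a3 for Tcf7l2, Ccdc97 for Prkcd, Neurod1 for Slc17a6, Supt3 for Ttr, Mkl2 for Kl, Pcdhb7 for Col1a1, Stn1 for Lum and Dscam for Ptgds. Next came Serpinb9 and Gpr155 for Tcf7l2, Prr11 and Spryd4 for Prkcd, and Tapt1 and Uqcrc2 for Slc17a6. They were Pstk and Agk for Ttr, Setd1a and Dcp1b for Kl, Slitrk2 and Cerkl for Col1a1, Col5a3 and Ier3 for Lum, and Sorl1 and Lcmt2 for Ptgds. Among members of 1 tissue outside the pituitary, the closest by rank were Col1a1, which stood 1087 of 14866 for Ptgds, and Ptgds, which stood 1625 for Col1a1. Kl stood 2347 for Ttr, and the farthest was Ptgds, which stood 13102 for Lum. For Gh and Prl, whose libraries fell into separate sets, no likeness is given.

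The members lie on GRCm38 (GENCODE M21) as follows. Tcf7l2 is at chr19:55741820-55933654, Prkcd at chr14:30595354-30626210 and Slc17a6 at chr7:51622006-51671119. Ttr is at chr18:20665280-20674321 and Kl at chr5:150952607-150993817. Col1a1 is at chr11:94936224-94953042, Lum at chr10:97565128-97572703 and Ptgds at chr2:25466709-25470046. Gh is at chr11:106300271-106301865 and Prl at chr13:27057570-27065205. A few of them share positions with another annotated gene, Ppnr in Tcf7l2, Gm45072 in Slc17a6 and the antisense gene Gm47888 in Prl, so their counts could include or lose reads of those genes.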

How the data were processed

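Per the labels' protocols, dissected dentate gyri were extracted with Trizol and then on a column, stranded mRNA libraries were made from 500 ng of RNA, and reads were single-end, 75 bases long. The deposited table holds the authors' raw read counts per gene symbol, not normalized. STAR 2.5.1b, Cufflinks 2.2.1 and build mm10 are named, without roles, per the submitters' processing notes. Annotation, strand setting and handling of multi-mapped reads: not given in the sources used here.

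Genotypes were compared with edgeR 4.0.16 (filterByExpr, TMM, glmQLFit, glmQLFTest), with Benjamini-Hochberg adjustment over the 14867 genes tested and a threshold of 0.05. Each SE is the log2 fold change over the root of F. P-values of the fit set the difference between genotypes against the spread between these mice. Libraries of 1 genotype all differed by more than sampling noise (chi-square per degree of freedom at least 4.64). Correlations used log2(CPM + 0.1) and 100000 permutations, two-sided, or all orders for 8 libraries; of 8 pairs planned, Gh with Prl was left out after its values were seen. Exon lengths and positions come from GENCODE M21. The fit was tested on simulated data.

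Alternatives were DESeq2 1.42.0, limma-voom (limma 3.58.1), scaling by upper quartiles, testing every gene with counts, keeping genes with at least 1 CPM in 5 libraries, blocking by mouse number, and leaving out each library.

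The members and the 12 marker lists were chosen with earlier results of these data known. Genes named are the members, Fndc5, up to 4 further genes of each list with the smallest p, and the 3 genes most like each member outside the pituitary. List genes at or near 0, Lcn2, Sostdc1, Prox1, Calb1, Ogn, Col1a2, Col3a1 and Ntng1 were named after their values were seen.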

Additional observations from a re-analysis of the deposited data

How the results depend on the processing

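No member passed the threshold in any of 16 alternatives, and 0 of the other listed genes did. Prkcd, Slc17a6, Kl, Lum, Ptgds and Prl kept their direction in all 16. With single mice left out, Gh ranged from -0.27 (without KO mouse 2) to 0.80 (without WT mouse 3), also turning to -0.19 without WT mouse 1, Ttr from -0.37 to 0.14 (above 0 without KO mouse 3 or 4), Col1a1 from -0.20 to 0.016 (above 0 without KO mouse 3 or WT mouse 4) and Tcf7l2 from -0.037 to 0.011 on the log2 scale. Tcf7l2 was at 0.00097 with upper-quartile scaling, and r of Tcf7l2 with Prkcd was -0.28 without KO mice 1 and 5. The number of genes past the threshold over the whole table, 1 in edgeR, was 3 with DESeq2, 8 with the replicate block and 1 to 3 with single mice left out (3 without WT mouse 1, 2 without KO mouse 2); the cause was not tested. Same-numbered mice correlated at 0.209, 0.204, 0.108, 0.00901 and 0.0282, all above 0. These were not compared with mice of unlike number, so whether the numbers pair the mice was not tested. The labels name no pairing, and the main fit has no block. With the block, 1493 genes had an unadjusted edgeR p under 0.05, beside 935 in the main fit. The block put Lum at 0.43 (adjusted p 0.347). It put Ptgds at -0.11 with an SE of 0.063, beside 0.151 in the main fit. With a pseudocount of 0.5 CPM or after subtracting genotype means, all 7 correlations kept their sign and none passed. Counting error at the mean count, 7.11% for Tcf7l2, was above the spread between mice of 5.91%, and likewise for Slc17a6, so depth limits these members; for the other 8 the spread was larger.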

Other observations

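The 20 groups of 5 values of the members were each checked for 1 mouse far from its group by Dixon's ratio of gap to range, and 0 were found, where chance gives about 1.0. The largest ratio was 0.662, below the critical value for 5 samples.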
